A study of Homo sapiens with 21 samples.

Results

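HNRNPK, an RNA-binding protein with KH domains that recognise C-rich RNA, was mapped on the transcripts of 9 genes that carry cells from G1 into S phase. The genes were taken by name: the D-type cyclins CCND1 and CCND3, the kinases CDK6 and CDK4, the later pair CCNE2 and CDK2, the inhibitor CDKN1B, the pocket protein RB1 and the transcription factor E2F3. They were chosen with earlier results of these data known. Every deposited binding site with one of these gene names was kept, and these were 1037 of 778762 sites, on 9 of 18322 gene names. The data came from MDA-MB-231 cells, a triple-negative breast cancer line, either parental or with KRT19 deleted by CRISPR/Cas9 (KRT19 KO). KRT19 encodes keratin 19, an intermediate filament protein. Whether the KRT19 KO line was 1 clone is not given in the sources used here.

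In PAR-CLIP, cells incorporate 4-thiouridine, UV light crosslinks it to bound protein, and the crosslinked base is later read as C in place of T. HNRNPK was immunoprecipitated with an anti-HNRNPK/J antibody from the cytoplasmic and the nuclear fraction, which gave 4 libraries: parental cytoplasm, KRT19 KO cytoplasm, parental nucleus and KRT19 KO nucleus. Levels are given as reads per 1000000 reads in sites of the library (RPM). A binding site here is a cluster of overlapping reads with T-to-C changes, as the authors deposited it, with its position on hg19. Each condition had 1 library. No difference below therefore has a replicate check, no p-value is given, and the 95% intervals cover counting error only. More HNRNPK on each RNA and more RNA of a gene cannot be told apart in these counts, and RNA-seq from 17 further samples was not used here.

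Cyclin D1 and cyclin D3 bind and activate CDK4 and CDK6, which phosphorylate the retinoblastoma protein encoded by RB1. Phosphorylation releases E2F factors such as E2F3, which switch on genes of DNA synthesis, among them CCNE2, whose product activates CDK2 and closes the loop. The protein encoded by CDKN1B, p27, holds CDK2 complexes inactive. HNRNPK moves between nucleus and cytoplasm, where it is known for roles in splicing, mRNA stability and translation.

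The libraries held 177530 to 201726 sites and 3252800 to 6216226 reads in sites, of which the 9 genes took 229 to 306 sites and 4685 to 25437 reads. The smallest deposited site had 5 reads, so a gene without a site in a library may still have had a few reads there. Reads in 3'UTR sites made up 31.6% of all reads in the parental cytoplasm and 47.4% in the KRT19 KO cytoplasm, against 5.34% and 5.43% in the parental and KRT19 KO nucleus. The nuclear RNA NEAT1 followed its label, with 226.4 and 204 RPM in the parental and KRT19 KO cytoplasm against 789 and 1092 in the nucleus. The nuclear RNA MALAT1 went against it, with 1229 and 842 RPM in the cytoplasm against 888 and 548 in the nucleus. KRT19 itself had 7 and 5 reads in the cytoplasmic libraries and none in the nuclear ones, too few to check the knockout. Of the markers of the line, CD44 had at least 1168 and VIM at least 69 reads in every library, while the epithelial CDH1 had 0 to 6 and EPCAM 0 to 41.

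**Figure D1:**
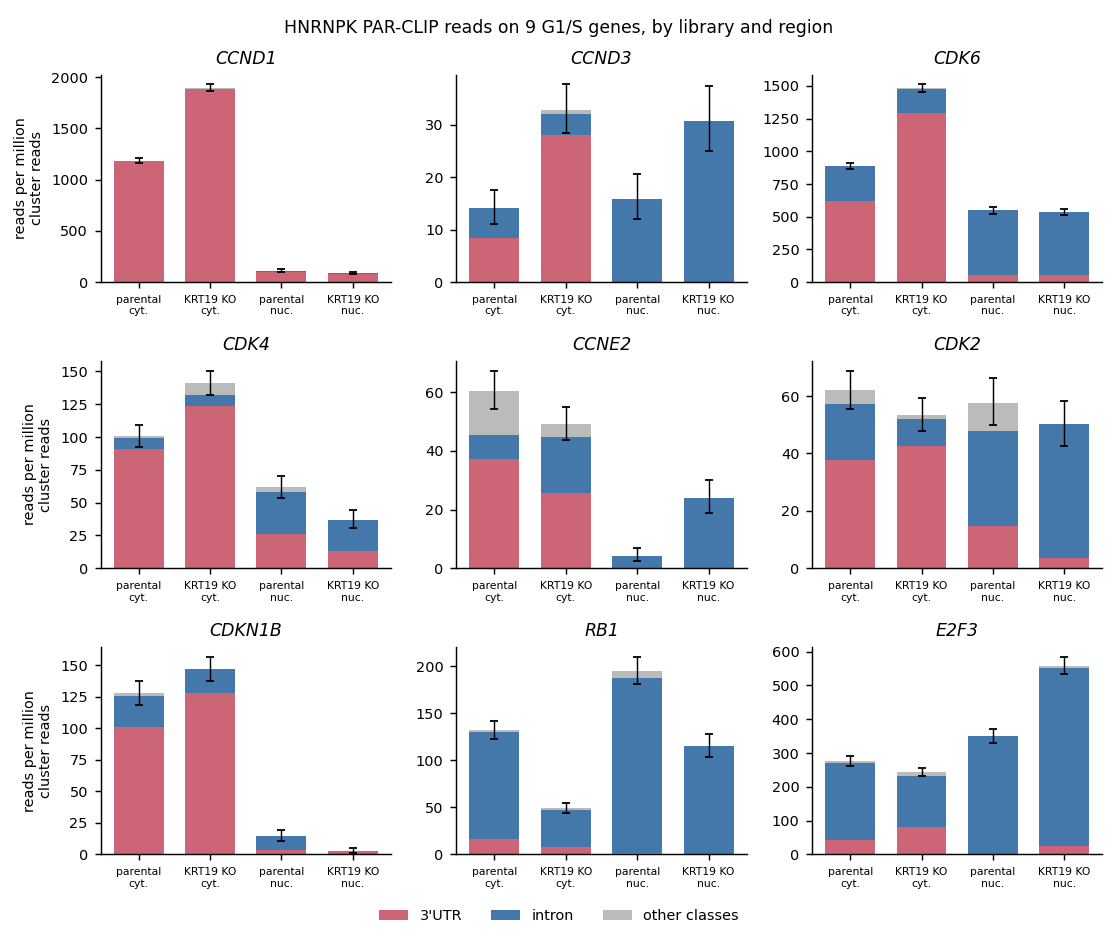
RPM (vertical axis, linear, a separate scale for each gene) in the 4 libraries, with 1 bar a library split into 3'UTR, intron and other classes, and 95% Poisson intervals of the total as error bars. CCND1 stood at 1187 and 1895 in the parental and KRT19 KO cytoplasm and at 112 and 86.4 in the nucleus, nearly all in the 3'UTR, whereas RB1 and E2F3 were mostly intronic in all 4 libraries.

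The 9 genes fell into different patterns by region. Cytoplasmic reads on CCND1 and CDKN1B lay mainly in the 3'UTR, and both genes had far higher RPM in the cytoplasm than in the nucleus. Reads on RB1 and E2F3 lay mainly in introns in all 4 libraries, and CDK6 joined both patterns, with the 3'UTR leading in the cytoplasm and introns in the nucleus. Counted together, 3'UTR sites held 75.3% of the reads of the 9 genes in the parental cytoplasm, 88.2% in the KRT19 KO cytoplasm, 15.3% in the parental nucleus and 12.7% in the KRT19 KO nucleus. CCND1 and CDK6 held 6588 and 3458 of the 11897 3'UTR reads in the parental cytoplasm. In the KRT19 KO cytoplasm they held 11711 and 8026 of 22443. RB1 and E2F3 had 12.2% and 15.3% of their own parental cytoplasmic reads in the 3'UTR. By number of sites the shares of the 9 genes were 23.9%, 35.3%, 8.30% and 8.58%. Over all sites they were 10.7%, 16.0%, 3.86% and 4.05% in the same order.

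Per kilobase of 3'UTR, CCND1 carried the most 3'UTR reads of the 9 genes in both cytoplasmic libraries, 372 and 590.2 RPM per kilobase in parental and KRT19 KO cells. CDK4 followed with 114 and 155, then CDKN1B with 75.03 and 95.2 and CDK6 with 61.0 and 126, in the same order. CDK6 and CDKN1B thus exchanged places between the cell lines. RB1 was the lowest in the KRT19 KO cytoplasm, with 4.25, and CCND3 in the parental, with 8.57, close to 8.81 for RB1.

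CCND1 (chr11:69455924-69469242, plus strand), the D-type cyclin with a 3'UTR of 3192 nt, had 6588 reads in the parental cytoplasm, 11781 in the KRT19 KO cytoplasm, 395 in the parental nucleus and 281 in the KRT19 KO nucleus. Both cytoplasmic libraries lay far above both nuclear ones. The reads gathered at few places: of 25 distinct 3'UTR sites, made by merging overlapping sites of the libraries, the 3 with the most reads held 94.8% of the 3'UTR reads in the parental cytoplasm and 87.6% in the KRT19 KO cytoplasm. Those 3 sites were also found in both nuclear libraries. The stretches below are the 30 bases of each site covered by the most libraries, shown because most HNRNPK reads on this gene fell there, with runs of CCC or longer in capitals.
CCND1, site near 1720 nt, chr11:69467781-69467810, plus strand: ttatCCCCtgCCCCttcctttaaaaaactt
CCND1, site near 999 nt, chr11:69467032-69467061, plus strand: ttcttcatattctaaaaccattccatttcc
CCND1, site near 871 nt, chr11:69466905-69466934, plus strand: aatatattctatttttatactcttcctatt

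Distances are from the stop codon to the middle of the site. The site near 1720 nt had 2235, 4439, 92 and 84 reads in the parental cytoplasm, KRT19 KO cytoplasm, parental nucleus and KRT19 KO nucleus. The site near 999 nt had 2070, 4378, 113 and 97 reads, and the site near 871 nt had 1944, 1436, 80 and 65. The first 2 of these were higher in the KRT19 KO than in the parental cytoplasm, by log2 0.83 (0.75 to 0.90) and 0.92 (0.84 to 0.99) in RPM, while the site near 871 nt was lower, by log2 -0.60 (-0.70 to -0.50). Sites of the same 3'UTR thus differed in direction. Over all genes the median log2 ratio of 3'UTR reads in this comparison, taken by gene, was 0.70. Another site near 1093 nt had 533 reads in the KRT19 KO cytoplasm and 57 in the parental nucleus, and no deposited site in the other 2 libraries. The C runs were not common to the strongest sites, since the sites near 999 and 871 nt hold no CCC anywhere in their 48 and 41 nt, and neither does the site near 1093 nt.

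**Figure D2:**
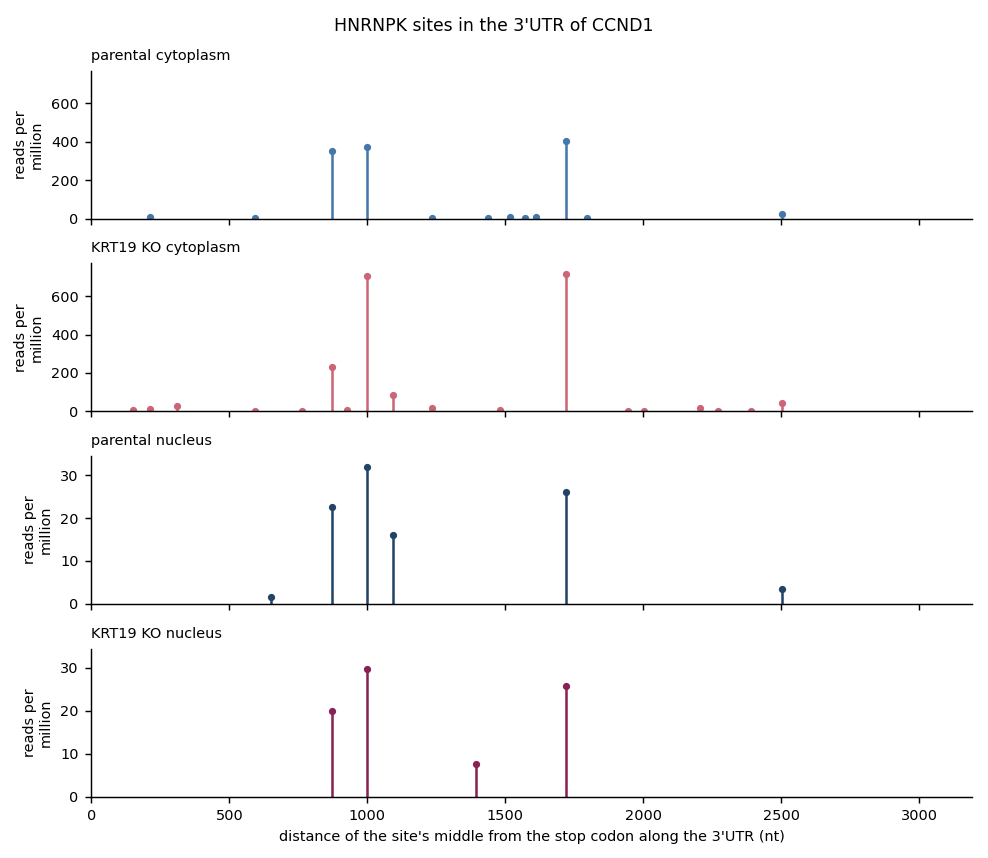
RPM at each CCND1 3'UTR site (vertical axis, linear, the same scale within cytoplasm and within nucleus) against the distance of its middle from the stop codon in nt, with 1 panel a library. The sites near 871, 999 and 1720 nt stand out in all 4 panels, at 350.2, 373 and 403 in the parental cytoplasm and at 231, 704 and 714 in that of the KRT19 KO.

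CCND3 (chr6:41902672-42018095, minus strand), the other D-type cyclin, was sparsely bound, with 78, 204, 56 and 100 reads in the parental cytoplasm, KRT19 KO cytoplasm, parental nucleus and KRT19 KO nucleus. The cytoplasmic reads were mostly from the 3'UTR, 47 and 174 reads, and the nuclear reads were all intronic. The 21 intronic sites lay upstream of the start of the gene's canonical transcript, in introns of longer isoforms. The strongest 3'UTR site, 74 nt after the stop codon, had 15 and 74 reads in the parental and KRT19 KO cytoplasm and none deposited in the nucleus.

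CDK6 (chr7:92234235-92465887, minus strand), the kinase partner of the D-type cyclins, spans 232 kb and ends in a 3'UTR of 10219 nt. It had 4925, 9211, 1939 and 1743 reads in the parental cytoplasm, KRT19 KO cytoplasm, parental nucleus and KRT19 KO nucleus, in 123, 108, 103 and 103 sites. In the 3'UTR these were 3458, 8026, 204 and 181 reads, and in introns 1467, 1179, 1735 and 1562. The 3'UTR reads of both cytoplasmic libraries lay above those of both nuclear libraries. Intronic reads went the other way, with 264 and 190 RPM in the parental and KRT19 KO cytoplasm against 490 and 480 in the nucleus. The median intronic log2 ratio of cytoplasm over nucleus over all genes was also below 0, at -0.97 in parental and -1.60 in KRT19 KO cells. Intronic reads made up 29.8% (28.5 to 31.1) of CDK6 reads in the parental cytoplasm and 12.8% (12.1 to 13.5) in the KRT19 KO cytoplasm, against 89.5% (88.0 to 90.8) and 89.6% (88.1 to 91.0) in the nucleus.

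The CDK6 3'UTR held 63 distinct sites, the nearest to the stop codon 1157 nt from it and the farthest 10158 nt. Of these, 43 were found in 1 library and 1 in all 4, and 16 were shared by the 2 cytoplasmic libraries. The 7 sites with the most reads over all libraries lay between 4214 and 6642 nt. The 4 strongest sites are shown because they carried most of the cytoplasmic reads on this gene, again as the 30 bases covered by the most libraries and with runs of CCC or longer in capitals.
CDK6, site near 4520 nt, chr7:92239920-92239949, minus strand: ttcatttcttatttactCCCtttctatatc
CDK6, site near 4564 nt, chr7:92239876-92239905, minus strand: CCCaattttaatacatCCCtatatctcaag
CDK6, site near 5803 nt, chr7:92238623-92238652, minus strand: caagtctacttaaagacttcttataCCCCa
CDK6, site near 5494 nt, chr7:92238979-92239008, minus strand: CCCCagttaaaacacacataCCCtctctgc

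All 4 strongest CDK6 sites hold a CCC run, which sets them apart from the sites near 871 and 999 nt of CCND1. The site near 4520 nt had 1321 reads in parental and 1375 in KRT19 KO cytoplasm, no deposited site in the parental nucleus and 47 reads in the KRT19 KO nucleus. Its level was alike in the cytoplasm of both lines, with a log2 ratio of KRT19 KO over parental of -0.10 (-0.21 to 0.01) in RPM. The site near 4564 nt begins 1 nt further on. It had 2352 reads in the KRT19 KO cytoplasm, 96 in the parental nucleus and 36 in the KRT19 KO nucleus, but no deposited site in the parental cytoplasm. Over the adjacent pair together the KRT19 KO cytoplasm held 3727 reads and the parental 1321, a 2.52-fold difference in RPM.

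The remaining leading sites were higher in the KRT19 KO cytoplasm. The site near 5803 nt had 613 and 1050 reads in the parental and KRT19 KO cytoplasm (log2 0.61, 0.47 to 0.76), and the site near 5494 nt had 672 and 949 (log2 0.34, 0.19 to 0.48). The 1 site found in all 4 libraries, near 4214 nt, had 79, 202, 5 and 14 reads. A site near 6642 nt had 365 reads in the KRT19 KO cytoplasm and 17 in its nucleus, and none deposited in the parental libraries. Over the 16 sites shared by the cytoplasmic libraries, 12 had a higher RPM in the KRT19 KO, with a median log2 ratio of 0.61. Over all genes the median log2 ratio of 3'UTR reads, taken by gene, was 0.70, so such a rise was common. The order of the 16 sites was alike in both libraries (Spearman's rho 0.80 across sites, which share a transcript and are not independent). The share of 3'UTR reads in the top 3 sites was 75.4% in parental and 59.5% in KRT19 KO cytoplasm. In the KRT19 KO the top 3 counted both sites of the adjacent pair, with 1375 and 2352 reads, as separate places. The parental cytoplasm had a deposited site at only 1 of the pair. Part of the gap thus comes from how the pair was counted. The share with the pair taken as 1 place was not computed, so a wider spread of reads in the KRT19 KO was not shown.

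**Figure D3:**
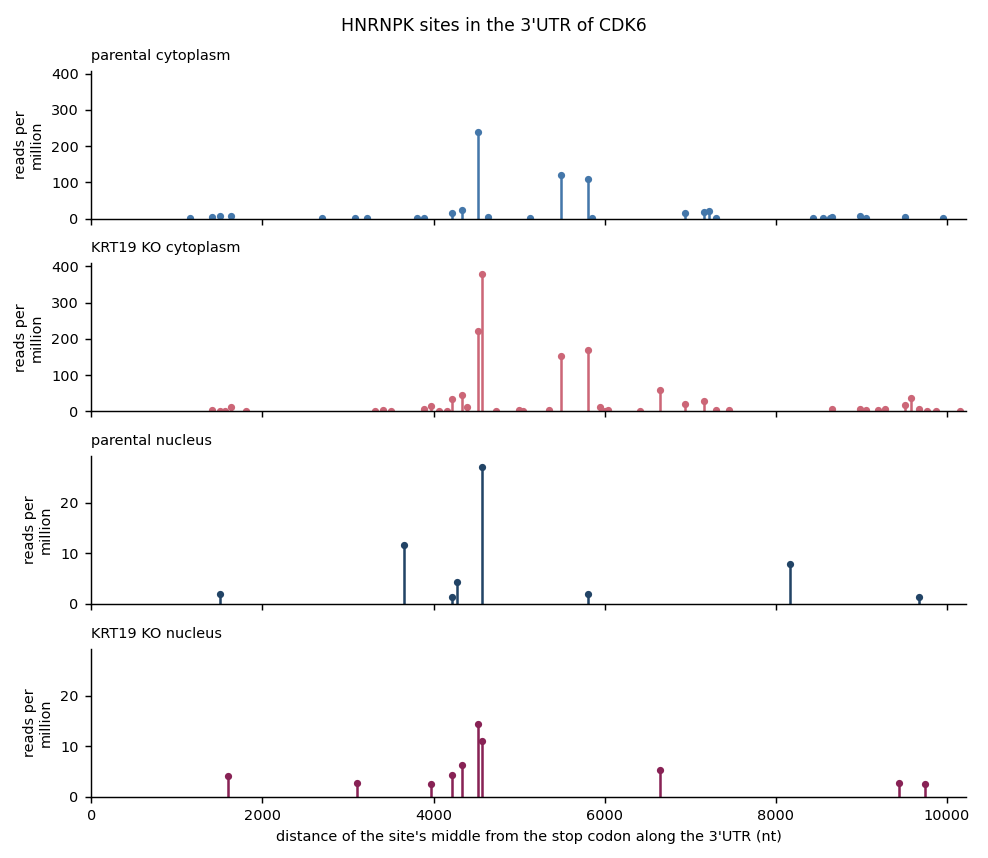
RPM at each CDK6 3'UTR site (vertical axis, linear, the same scale within cytoplasm and within nucleus) against the distance of its middle from the stop codon in nt, with 1 panel a library. The site near 4520 nt stands at 238 and 221 in the parental and KRT19 KO cytoplasm, while its neighbour near 4564 nt stands at 378 in the KRT19 KO cytoplasm and is missing from the parental cytoplasm.

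Most CDK6 sites by number were intronic. The 240 distinct intronic sites lay at a median distance of 12455 nt from the nearest exon, and 3 lay within 300 nt of one. Introns 2 to 5, of 58.3, 48.9, 54.1 and 48.3 kb, held nearly all of them. In the parental nucleus these introns had 82.0, 76.6, 89.0 and 229.5 RPM, and in the KRT19 KO nucleus 82.7, 107, 89.8 and 194, so intron 5 led in both. In the parental cytoplasm they had 38.9, 87.5, 51.5 and 82.7, with intron 3 ahead of intron 5, and in the KRT19 KO cytoplasm 21.6, 55.0, 66.4 and 44.9, with intron 4 highest. Of the intronic sites, 6 were found in all 4 libraries, and the pair with the most reads lies in intron 5.
CDK6, intron 5, chr7:92271630-92271659, minus strand: cttatatctctCCCCCtatatCCCaccaca
CDK6, intron 5, chr7:92291207-92291236, minus strand: ttcttcatCCCttCCCatcataaaaataat

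Each of these intronic stretches holds 2 C runs. The former had 84, 50, 136 and 174 reads in the parental cytoplasm, KRT19 KO cytoplasm, parental nucleus and KRT19 KO nucleus, and the latter 52, 17, 170 and 47. Both were above their cytoplasmic level in RPM in the nucleus of the same line. A site in intron 2, 22.25 kb from the transcription start, had 138 reads in parental and 31 in KRT19 KO nucleus and 38 in the KRT19 KO cytoplasm, with none deposited in the parental cytoplasm.

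**Figure D4:**
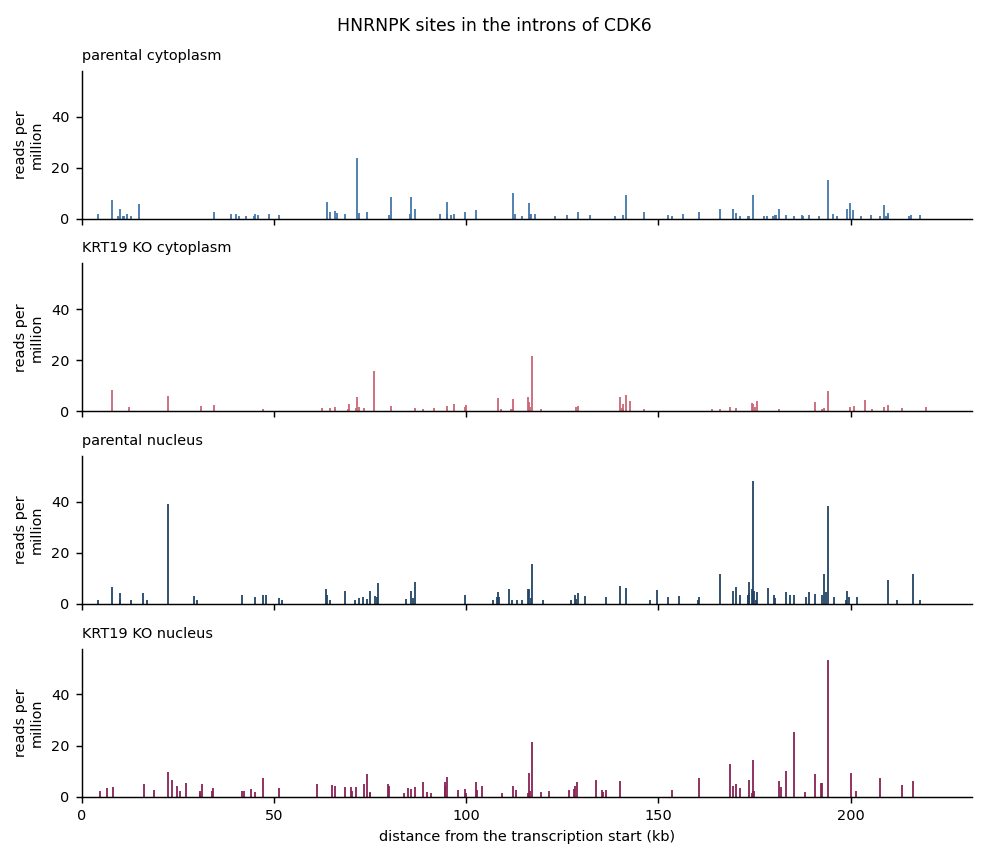
RPM at each CDK6 intronic site (vertical axis, linear, the same scale in all panels) against its distance from the transcription start in kb, with 1 panel a library. The tallest nuclear sites were 48.1 (parental) and 53.5 (KRT19 KO), both in intron 5.

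The genes nearest to CDK6 in 3'UTR RPM over the 4 libraries, among 223 genes with at least 100 3'UTR reads in each, were PTPN1, SP1 and PURB. Their largest log2 difference from CDK6 in any library was 0.35, 0.49 and 0.52. PTPN1 had 784, 1015, 62.5 and 49.8 RPM in the parental cytoplasm, KRT19 KO cytoplasm, parental nucleus and KRT19 KO nucleus, where CDK6 had 623, 1291, 57.7 and 55.6.

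CDK4 (chr12:58141510-58149796, minus strand), the other kinase that D-type cyclins activate, had 559, 876, 218 and 120 reads in the parental cytoplasm, KRT19 KO cytoplasm, parental nucleus and KRT19 KO nucleus. In contrast to CDK6, its 3'UTR of 798 nt held 2 sites, and the site near 200 nt took 498 of 506 and 741 of 769 3'UTR reads in the parental and KRT19 KO cytoplasm. That site had 92 and 42 reads in the nuclear libraries. The strongest of its 4 intronic sites, in intron 5 and 313 nt from an exon, had 39, 48, 114 and 61 reads and so led in the nucleus. The leading 3'UTR site and this intronic site were found in all 4 libraries, and the stretches shown hold 1 and 3 C runs.
CDK4, 3'UTR, chr12:58142106-58142135, minus strand: ctccttctccttCCCatttctctacactaa
CDK4, intron 5, chr12:58144094-58144123, minus strand: tCCCaCCCCtacctCCCaaagtagcataag

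CCNE2, cyclin E2, had 336, 306, 15 and 78 reads in the parental cytoplasm, KRT19 KO cytoplasm, parental nucleus and KRT19 KO nucleus. Its 3'UTR had 207 and 159 reads in the cytoplasm and no deposited site in either nuclear library. Of 9 distinct 3'UTR sites, 1 was shared by the cytoplasmic libraries, with 67 parental and 63 KRT19 KO reads. Of the 78 reads in the KRT19 KO nucleus, 63 came from a single intronic site that no other library held.

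CDK2 (chr12:56360565-56366573, plus strand), the kinase activated by cyclin E2, had 344, 331, 204 and 163 reads in the parental cytoplasm, KRT19 KO cytoplasm, parental nucleus and KRT19 KO nucleus. These were the most even levels of the 9 genes, at 62.0, 53.2, 57.7 and 50.1 RPM. The leading 3'UTR site, 229 nt after the stop codon, had 112, 125, 52 and 12 reads, and the leading intronic site, in intron 1 and 148 nt from an exon, had 32, 22, 86 and 91. The 3'UTR site was thus stronger in the cytoplasm and the intronic site in the nucleus. The 3'UTR site is shown for its C runs.
CDK2, 3'UTR, chr12:56365626-56365655, plus strand: gcctccaccaCCCtttCCCCCttctcttag

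CDKN1B (chr12:12838432-12875303, plus strand), which encodes the CDK inhibitor p27, had 710, 913, 52 and 9 reads in the parental cytoplasm, KRT19 KO cytoplasm, parental nucleus and KRT19 KO nucleus. Its cytoplasmic reads came chiefly from a 3'UTR site near 480 nt, with 344 and 517 reads in the parental and KRT19 KO cytoplasm, and a site near 803 nt, with 191 and 197. In the nucleus the former had 13 reads in the parental library and the latter 9 in the KRT19 KO. The leading 3'UTR site holds no CCC, and in the parental cytoplasm none of the 3 CDKN1B 3'UTR sites did, whereas its leading intronic site, with 106, 96 and 18 reads in the parental cytoplasm, KRT19 KO cytoplasm and parental nucleus, holds one.
CDKN1B, 3'UTR, chr12:12874426-12874455, plus strand: tacttcatttaaaaaaatcacaaaaatttg
CDKN1B, intron 2, chr12:12873378-12873407, plus strand: tataatttttattCCCaatcatttttcaaa

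RB1 (chr13:48877880-49173572, plus strand), the pocket protein that CDK4 and CDK6 phosphorylate, had 731, 305, 689 and 375 reads in the parental cytoplasm, KRT19 KO cytoplasm, parental nucleus and KRT19 KO nucleus. Both KRT19 KO libraries lay below both parental libraries in RPM, at 49.1 and 115 against 132 and 195 in the same fraction. The reads were spread thinly over many sites: 101 distinct intronic sites, of which 48 lay in intron 17, the longest at 71.5 kb, and 7 in the 3'UTR. The most reads at any RB1 site in a library were 63. A single site, in intron 17, was found in all 4 libraries, with 24, 25, 31 and 49 reads.
RB1, intron 17, chr13:48979899-48979928, plus strand: tattccttctatCCCatttccaaCCCCacc

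E2F3 (chr6:20402110-20493945, plus strand), a transcription factor held by the retinoblastoma protein, had 1531, 1510, 1237 and 1816 reads in the parental cytoplasm, KRT19 KO cytoplasm, parental nucleus and KRT19 KO nucleus. Of its 144 distinct intronic sites, 132 lay in intron 1, which is 77.2 kb long. That intron alone had 217, 144, 318 and 506 RPM in the 4 libraries, highest in the KRT19 KO nucleus. The 2 intronic sites with the most reads lie in it and were found in all 4 libraries. The site 15.45 kb from the transcription start had 120, 189, 187 and 116 reads, and the site 14.1 kb from it 119, 63, 95 and 231, so the former was higher and the latter lower in the KRT19 KO cytoplasm than in the parental. The leading 3'UTR site, near 2113 nt, had 190 and 365 reads in the parental and KRT19 KO cytoplasm and 60 in the KRT19 KO nucleus.
E2F3, intron 1, chr6:20417546-20417575, plus strand: CCCCCCaatCCCaactcattataaaaacca
E2F3, intron 1, chr6:20416234-20416263, plus strand: catcactttCCCtccaaaCCCCatttcctc
E2F3, 3'UTR, chr6:20492743-20492772, plus strand: cttttCCCCatttCCCatatttatctcatc

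The first comparison set HNRNPK reads on these genes in the KRT19 KO cytoplasm against the parental cytoplasm. With 1 library each, loss of KRT19 cannot be told apart from other differences between the libraries. CCND3 was 2.34-fold higher in the KRT19 KO (log2 ratio of RPM 1.22, 0.84 to 1.62) and RB1 2.68-fold lower (-1.42, -1.62 to -1.23). CDK6 and CCND1 were higher by less than 2-fold, at log2 0.74 (0.69 to 0.79) and 0.68 (0.63 to 0.72). The other members lay between log2 -0.30 for CCNE2 and 0.48 for CDK4, and the interval for CDK2, -0.44 to 0.003, reached both sides of 0. Thus 1 of the 9 was 2-fold or more higher and 1 lower, where 19.6% and 20.2% of the 7783 genes with at least 100 reads in the 2 libraries were. In these counts a gene with no site in 1 of the libraries was given 3 reads there. The median over the 9 was log2 0.20, beside -0.06 over all genes.

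The regions of these genes moved apart in the KRT19 KO cytoplasm. In 3'UTR reads CCND3 was 3.31-fold and CDK6 2.07-fold higher and RB1 2.08-fold lower, where 39.9% of 3800 genes were 2-fold or more higher and 10.5% lower. The median 3'UTR log2 ratio of the 9 was 0.44, below the 0.70 over all genes. In intronic reads CDK6 was lower in the KRT19 KO, by log2 -0.48 (-0.59 to -0.37), as were E2F3, by -0.60 (-0.72 to -0.48), and RB1, by -1.52 (-1.74 to -1.31), beside a median of -0.72 over all genes. For CDK6 and E2F3 the 3'UTR and the introns of the same gene thus lay on opposite sides of 0, as did the medians of all genes. CCNE2 went the other way, with intronic reads 2.34-fold higher (log2 1.23, 0.72 to 1.76, on 45 and 118 reads) and 3'UTR reads at log2 -0.54 (-0.85 to -0.24). RB1 was lower in both regions. Scaled to reads in 3'UTR and coding sites only, the 3'UTR ratio of CDK6 was log2 0.40 and that of CCND3 1.07, and with unique reads that of CDK6 was 0.98 and that of RB1 -0.54, so the calls on CDK6 and RB1 did not hold. The call on CCND3 over all regions was lost without its top site in each library (log2 0.88) and with the 3'UTR and coding total (0.57), while RB1 stayed more than 2-fold lower over all regions in each of the 4 alternatives to the ratio.

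In the nucleus none of the 7 members with at least 100 reads was past 2-fold in either direction, where 11.2% of 7349 genes were higher and 15.7% lower. The ratios ran from log2 -0.76 (-0.94 to -0.57) for RB1 to 0.96 (0.47 to 1.46) for CCND3. That of CCND3 rests on 100 and 56 reads in the KRT19 KO and parental nucleus, or 15 and 12 unique reads. In the KRT19 KO nucleus 9 of its 11 sites had 1 unique read, and with unique reads the ratio was 0.52. E2F3 was higher, at 0.68 (0.57 to 0.78), CDK4 lower, at -0.74 (-1.07 to -0.41), and CDK6 was near 0, at -0.03 (-0.13 to 0.06). CCND3 was higher and RB1 lower in the KRT19 KO in both fractions, while CCND1 and CDK4 were higher in its cytoplasm and lower in its nucleus. With the 3'UTR and coding total the cytoplasmic ratios of CCND1 and CDK4 were 0.02 and -0.17, and the nuclear ones -0.72 and -1.09. The opposite directions thus did not hold for CDK4, and the cytoplasmic rise of CCND1 was all but lost. The median over the 7 was -0.20, beside -0.11 over all genes. The 2 members under 100 nuclear reads differed most: CCNE2 was 5.66-fold higher in the KRT19 KO, on 15 and 78 reads, and CDKN1B 5.31-fold lower, on 52 and 9 reads.

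**Figure D5:**
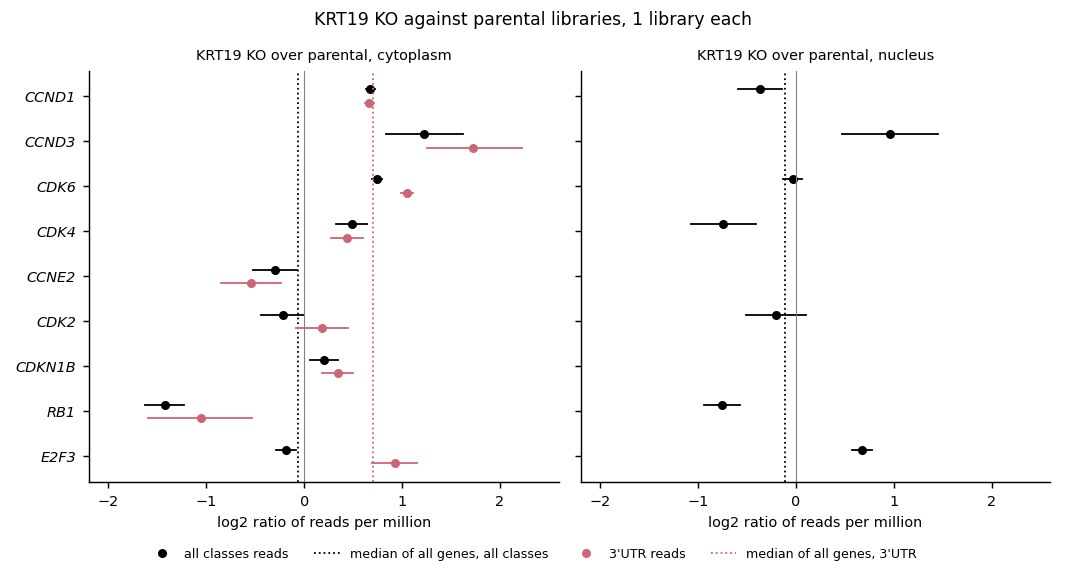
Log2 ratio of RPM, KRT19 KO over parental (horizontal axis), for each gene in the cytoplasm (left, reads of all regions in black and of the 3'UTR in red) and the nucleus (right, all regions), with 95% counting intervals as lines and the medians over all genes dotted. RB1 lies left of 0 and CCND3 right of 0 in both panels, and the 3'UTR median of all genes in the cytoplasm is itself at 0.70.

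Cytoplasm was then compared with nucleus within each line. In parental cells CCNE2 was 14.3-fold, CCND1 10.6-fold and CDKN1B 8.70-fold higher in the cytoplasm and none of the 9 was 2-fold lower, where 19.1% of 7766 genes were higher and 31.3% lower. In KRT19 KO cells CDKN1B was 53.1-fold, CCND1 21.9-fold, CDK4 3.82-fold, CDK6 2.76-fold and CCNE2 2.05-fold higher, and RB1 2.35-fold and E2F3 2.30-fold lower, where 26.1% of 7688 genes were higher and 38.0% lower. The large ratios of CCNE2 in parental and CDKN1B in KRT19 KO cells rest on 15 and 9 nuclear reads. These calls depended on the scaling. With the 3'UTR and coding total, CDK6, CDK4 and CCNE2 turned to log2 -0.98, -0.51 and -1.41 in KRT19 KO cells, and 6 of the 9 were 2-fold or more lower in parental cells. That total lowers the ratio of cytoplasm over nucleus alike for every gene, and the share of all genes past 2-fold was not counted with it. Without its top site in each library, CDK4 in KRT19 KO cells was at 0.26. Median log2 ratios of the 9 were 0.69 in parental and 1.04 in KRT19 KO cells, beside -0.48 over all genes in each line. CDK2 and CCND3 differed little, with intervals that reached both sides of 0 in both lines.

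In 3'UTR reads all members with at least 100 reads were 2-fold or more higher in the cytoplasm, 7 of 7 in parental and 8 of 8 in KRT19 KO cells. CCNE2 in both lines and CCND3 in KRT19 KO cells had no deposited nuclear 3'UTR site and entered these counts with 3 nuclear reads. This was close to the background, since 83.4% and 88.5% of 2665 and 3272 genes were higher and 3.56% and 1.96% lower. The smallest of these ratios were log2 1.36 for CDK2 in parental and 1.74 for E2F3 in KRT19 KO cells, both under the medians of all genes, 3.08 and 3.50. Those of CDK6 were 3.43 (3.23 to 3.64) and 4.54 (4.32 to 4.76), above both medians. Scaled to reads in 3'UTR and coding sites only, the ratios of CDK4 and CDK2 in parental and of E2F3 in KRT19 KO cells fell below 0.

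Many sites of these genes were found in 1 library alone. Of 710 distinct sites, 496 were in 1 library, 125 in 2, 68 in 3 and 21 in all 4. Median reads, summed over the libraries that held the site, were 9 for those in 1 library and 262 for those in 4. Each library adds at least 5 reads to a site it holds, so part of this gap is built in. No 3'UTR site of any of the 9 genes was found in both nuclear libraries without the cytoplasm, while 24 of 139 were in both cytoplasmic libraries without the nucleus. The 9 genes had 19 and 20 3'UTR sites in the parental and KRT19 KO nucleus, against 73 and 95 in the cytoplasm. Over all genes 3'UTR sites were fewer in the nucleus too, 7738 and 8057 against 21545 and 28448. Distinct sites were not counted over all genes, so these counts have no background beside them. Of the 306 sites in the parental cytoplasm, 33.7% (28.6 to 39.1, Wilson) overlapped a site in the KRT19 KO cytoplasm by at least 1 nt, beside 25.5% over all sites. With at least 20 reads the share was 62.0% (52.2 to 70.9), beside 56.5%. For 3'UTR sites it was 54.8% (43.4 to 65.7), beside 48.0%, and for intronic sites 27.0% (21.6 to 33.2), beside 22.8%. Asked from the KRT19 KO cytoplasm, the shares in 3'UTRs and introns were alike, 38 of 95 and 60 of 157 sites. Over all sites they were 36.1% and 31.9%. From the parental cytoplasm to its nucleus the 3'UTR share was the lower, 15.1% (11 of 73 sites) against 33.3% (74 of 222). The 3'UTR share was the lower over all sites too, 15.3% against 24.8% for introns. The 3'UTR share of the 9 genes was thus close to the background. Between the nuclear libraries, 28.8% (23.3 to 35.0) of parental sites were shared, beside 18.9%.

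C runs were searched as CCC on the transcribed strand of each site. Of member sites, 36.6% (31.4 to 42.1) held one in the parental cytoplasm, 38.7% (33.0 to 44.6) in the KRT19 KO cytoplasm, 41.9% (35.7 to 48.4) in the parental nucleus and 41.2% (35.1 to 47.6) in the KRT19 KO nucleus. Over all sites CCC was found in 80698 of 201726, and in 40.8%, 45.4% and 45.1% of the others in the same order, all within these intervals. The genes differed among themselves in the share of 3'UTR reads at distinct sites with CCC: in the parental and KRT19 KO cytoplasm it was 98.4% and 96.4% for CDK4, 87.1% and 81.9% for CDK6, 34.5% and 42.1% for CCND1, and 0% and 6.93% for CDKN1B. All of these rest on few strong sites, whose sequences are given above. U was the most frequent base of the 3'UTR sites of the 9 genes in each library, at 34.5% to 41.5% of bases, beside C at 23.0% to 26.7%. It was the most frequent base over all 3'UTR sites too, at 34.4% to 36.7%, beside C at 23.7% to 29.1%. Sites are called from T-to-C changes, so each must hold a U.

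The share of member reads with a T-to-C change was 61.4% (60.7 to 62.2) in the parental cytoplasm, 59.9% (59.3 to 60.5) in the KRT19 KO cytoplasm, 71.0% (69.7 to 72.3) in the parental nucleus and 73.5% (72.2 to 74.8) in the KRT19 KO nucleus, beside 66.4%, 59.6%, 72.8% and 76.7% over all sites. In the parental and KRT19 KO cytoplasm, 3'UTR sites of the 9 genes had 58.6% and 58.8%, beside 53.45% and 55.12% over all 3'UTR sites. Intronic sites of the 9 had 69.9% and 68.3%, beside 74.3% and 68.0% over all intronic sites. On CDK6 the share was lower in the 3'UTR than in introns in the cytoplasm, 59.2% against 71.1% in parental and 56.5% against 66.2% in KRT19 KO cells, and lower in the parental nucleus, 66.7% against 74.5%. In the KRT19 KO nucleus the order on CDK6 was turned, 78.5% against 74.7%, on 181 3'UTR reads. Over all sites the T-to-C share was lower in 3'UTRs than in introns in each library. In the parental and KRT19 KO nucleus it was 65.8% against 73.9% and 69.3% against 78.5%. At the site near 4520 nt it was 64.8% and 64.6% in the parental and KRT19 KO cytoplasm, and at its neighbour near 4564 nt it was 49.0% in the KRT19 KO cytoplasm.

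Of 34 further genes of the G1/S pathway, 29 had a site in each cytoplasmic library and 26 and 28 in the parental and KRT19 KO nucleus. In the KRT19 KO over the parental cytoplasm, 7 of the 22 with at least 100 reads were 2-fold or more higher and 1 lower, beside 19.6% and 20.2% of all genes, with a median log2 ratio of 0.48. Those with the most reads were E2F8, 3.89-fold higher, CDC25A, a phosphatase that activates CDK2, 6.19-fold higher, CCNH, a subunit of the CDK-activating kinase, 3.19-fold lower, and E2F5, 2.58-fold higher. In the nucleus 3 of 18 were higher and 2 lower, beside 11.2% and 15.7% of all genes, with a median of 0.35. There WEE1, a kinase that inhibits CDKs, was 2.25-fold, E2F8 4.48-fold and GMNN, an inhibitor of DNA licensing, 6.10-fold higher, and E2F1 2.02-fold lower. E2F8 and WEE1 were thus 2-fold or more higher in both fractions of the KRT19 KO, WEE1 at 2.45-fold in the cytoplasm. Among the 9, CCND3 was higher in both, but by 1.94-fold in the nucleus.

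Between fractions, 2 of 19 genes of this list were 2-fold or more higher in the parental cytoplasm and 6 lower, beside 19.1% and 31.3% of all genes, with a median log2 ratio of -0.62. TFDP1, the dimer partner of E2F factors, was 11.1-fold and SKP2, the ubiquitin ligase subunit that marks p27, 2.01-fold higher, while CUL1, the scaffold of that ligase, was 2.14-fold and E2F6 2.85-fold lower. In KRT19 KO cells 6 of 21 were higher and 7 lower, beside 26.1% and 38.0%, with a median of -0.70. TFDP1 was 12.2-fold, E2F7 4.58-fold and SKP2 2.70-fold higher, and MNAT1, another subunit of the CDK-activating kinase, 2.90-fold lower. These medians stand beside -0.48 over all genes, and those of the 9 genes described above were 0.69 and 1.04. The 9 genes and this list were chosen with earlier results of these data known, so the contrast between them is a description and not a test.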

How the data were processed

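PAR-CLIP reads were demultiplexed, freed of PCR duplicates by molecular identifiers, aligned to hg19, and called as clusters with PARalyzer inside PARpipe by the authors. They deposited, for each cluster, its position, annotation class, sequence and counts of reads, unique reads and reads with T-to-C changes. Each library was called alone. Per the labels, hg38, TopHat, Cuffdiff and Cufflinks 2.2.1 were listed for all samples alike. The sequences of all 1037 member clusters equalled GRCh37 at their coordinates, and gene models were GENCODE v44 lifted to that build.

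Counts were divided by all reads in clusters of the library and multiplied by 1000000 (RPM). Clusters of different libraries that overlapped by at least 1 nt on a strand were merged into distinct sites. Ratios carry exact conditional 95% intervals, levels exact Poisson and shares Wilson intervals. All cover counting error only, at 3252800 to 6216226 reads a library. With 1 library per condition no test was made. Genes with at least 100 reads in the 2 libraries together were counted as 2-fold higher or lower, with 3 reads where a library listed none of its clusters.

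The members and the list of 34 G1/S genes were chosen with earlier results of these data known. From that list, up to 4 genes with the most reads among those past 2-fold were named per comparison. For CDK6, the 3 genes nearest in 3'UTR level were named. The computations were tested on simulated data and run with Python 3.11.15, numpy 2.4.6, pandas 2.3.3 and scipy 1.17.1.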

Additional observations from a re-analysis of the deposited data

Results flagged for a closer look

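For 3 of the 7 genes with at least 100 reads in each comparison, the KRT19 KO over parental log2 ratio of RPM had opposite signs in cytoplasm and nucleus, with 95% counting intervals on opposite sides of 0. With 1 library per condition the differences were not tested. The share of all genes with such opposite signs was not counted, so the 3 of 7 has no background beside it. In 3'UTR reads alone the cytoplasmic ratios were 0.67 for CCND1, 0.44 for CDK4 and 0.92 for E2F3, beside a median of 0.70 over all genes. For CCND1 the cytoplasmic ratio was 0.68 and the nuclear -0.37, a difference of 1.05. For CDK4 they were 0.48 and -0.74, a difference of 1.23. For E2F3 they were -0.18 and 0.68, a difference of -0.86. With the 3'UTR and coding total the cytoplasmic ratios of CCND1 and CDK4 were 0.02 and -0.17, so the signs of CDK4 no longer differed. Below 100 nuclear reads, CCNE2 (-0.30 and 2.50) and CDKN1B (0.20 and -2.41) also had opposite signs, with larger differences.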

How the results depend on the processing

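With clusters of at least 10 reads, the 9 genes kept 169, 179 and 150 clusters in the parental cytoplasm, KRT19 KO cytoplasm and KRT19 KO nucleus. With at least 2 conversion locations, 166, 77 and 70 were left in the parental cytoplasm, parental nucleus and KRT19 KO nucleus. Their RPM in the parental and KRT19 KO cytoplasm were 3119 and 4354 with unique reads, and 3023 and 4175 without the library's top cluster in the total. Counts of members past the fold moved as follows, and the shares of all genes were not counted at these settings. In KRT19 KO over parental cytoplasm, 0 were higher without each gene's top cluster, 0 with a total of 3'UTR and coding reads, and 3 at 1.5-fold. In the nucleus, 1 was higher without the top cluster, 2 at 1.5-fold and 1 at a minimum of 50 reads, while 2, 2 and 1 were lower with the 3'UTR and coding total, at 1.5-fold and at that minimum. In parental cytoplasm over nucleus, 5 were higher at 1.5-fold, and 1 and 6 lower without the top cluster and with the 3'UTR and coding total. In KRT19 KO cytoplasm over nucleus that total gave 2 higher and 5 lower. In 3'UTR reads of KRT19 KO over parental cytoplasm, 1, 4, 1 and 4 were higher with unique reads, without the top cluster, with the 3'UTR and coding total and at 1.5-fold, and 0, 0 and 2 lower with unique reads, at least 10 reads and that total.

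Some log2 ratios past 2-fold changed sign. With the 3'UTR and coding total, KRT19 KO cytoplasm over nucleus was -0.98 for CDK6, -0.51 for CDK4 and -1.41 for CCNE2, and -0.70 for the E2F3 3'UTR, and the parental 3'UTR ratios were -0.33 for CDK4 and -0.78 for CDK2. That total is a far smaller part of the nuclear than of the cytoplasmic libraries. Without its top cluster, the CDK4 3'UTR ratio in KRT19 KO cells was -0.38. Counting every change of sign, also of ratios short of 2-fold, 16 of 58 log2 ratios turned with that total, 1 with at least 10 reads, 2 with unique reads and 4 without the top cluster. Among those short of 2-fold, that total gave parental cytoplasm over nucleus at -1.45 for CDK6, -1.43 for CDK4 and -2.04 for CDK2, and KRT19 KO over parental cytoplasm at -0.17 for CDK4 and -0.45 for CDKN1B.

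Sharing of parental with KRT19 KO cytoplasmic clusters was 45.0% at 10 and 62.0% at 20 reads or more, and 54.5% at 20 in the other direction. Weighted by reads, the 3'UTR share was 75.3%, 88.2% and 15.3% in the parental cytoplasm, KRT19 KO cytoplasm and parental nucleus. The T-to-C share with at least 2 conversion locations was 59.8%, 65.8% and 65.0% in the parental cytoplasm, parental nucleus and KRT19 KO nucleus, and without the top member cluster 60.3%, 57.9% and 74.9% in the parental cytoplasm, KRT19 KO cytoplasm and KRT19 KO nucleus. UCCC was in 27.4%, 23.1%, 32.8% and 27.5% of clusters. Except where stated, the cause was not tested. No paired analysis was possible because each condition had 1 library.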
